A study of Mus musculus with 31 samples.

Results

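A set of 10 genes that mark natural killer (NK) cells and cytotoxic T lymphocytes was followed through irradiation of mouse tumors: Gzma, Gzmb, Prf1, Nkg7, Ncr1, Klrk1, Klrb1c, Ifng, Eomes and Tbx21. They were chosen by gene name, and all 10 of 10 were found among the 46072 genes of the deposited tables. Messenger RNA had been sequenced from 31 tumors, 1 per mouse, of the RM-9 model (mouse prostate cancer cells, 15 mice) and the MC-38 model (mouse colon cancer cells, 16 mice). Both cell lines were labelled adenocarcinoma and grown under the skin of the right hind leg of wild type male C57BL/6 mice aged 6 to 7 weeks. Control mice of each model received no treatment. The other tumors received a single dose of radiation therapy (RT) of 15 Gy and were taken 3 h, 12 h or 24 h later. Groups had 4 mice, and RM-9 RT 24 h had 3. Control tumors were labelled with the earliest time, 3 h, and served as the reference for every RT group of their model, so effects of RT at 12 h and 24 h cannot be told apart from effects of time. Each model rests on 1 transplanted line. Nothing in the labels used here places both models in 1 preparation or sequencing run. Differences between their Control tumors therefore cannot be told apart from differences of run.

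NK cells and cytotoxic T cells kill a bound target cell by emptying granules toward it. Perforin, the product of Prf1, opens the target membrane, granzymes A and B (Gzma, Gzmb) enter and cleave proteins that drive cell death, and NKG7 (Nkg7) is a membrane protein of the granules. The activating receptors NKp46 (Ncr1), NKG2D (Klrk1) and NK1.1 (Klrb1c) sit on the surface, NKG2D being shared with activated CD8 T cells. Interferon gamma (Ifng) is the cytokine these cells release, and Eomes and T-bet (Eomes, Tbx21) are the T-box transcription factors that set up the program. Tumors are bulk tissue, so fewer cells of a type and less RNA per cell cannot be told apart in any of the values here.

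The sequences just upstream of Gzmb, Prf1 and Klrk1 are shown because the RT comparisons turned on these 3 genes. Each is the run of 250 bases before the RefSeq gene start on build GRCm38.p6, in the direction of the gene. Capitals mark the Runx core, TGTGGT or its reverse complement ACCACA, bound by Runx factors of lymphocytes, and in Gzmb also an AP-1 site, TGANTCA, bound by factors induced by T cell receptor signals. Gzmb lies on the minus strand at chr14:56262335-56262584, Prf1 on the plus strand at chr10:61297586-61297835 and Klrk1 on the minus strand at chr6:129623865-129624114.
Gzmb: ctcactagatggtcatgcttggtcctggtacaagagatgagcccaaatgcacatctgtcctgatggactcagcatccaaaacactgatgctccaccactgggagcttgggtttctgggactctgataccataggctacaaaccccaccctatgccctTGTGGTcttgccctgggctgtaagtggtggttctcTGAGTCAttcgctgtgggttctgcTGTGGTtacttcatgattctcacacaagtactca
Prf1: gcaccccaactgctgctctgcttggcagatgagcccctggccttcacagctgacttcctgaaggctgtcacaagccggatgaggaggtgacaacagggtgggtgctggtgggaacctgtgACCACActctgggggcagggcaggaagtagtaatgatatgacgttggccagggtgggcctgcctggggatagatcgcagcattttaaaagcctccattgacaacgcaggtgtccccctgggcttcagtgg
Klrk1: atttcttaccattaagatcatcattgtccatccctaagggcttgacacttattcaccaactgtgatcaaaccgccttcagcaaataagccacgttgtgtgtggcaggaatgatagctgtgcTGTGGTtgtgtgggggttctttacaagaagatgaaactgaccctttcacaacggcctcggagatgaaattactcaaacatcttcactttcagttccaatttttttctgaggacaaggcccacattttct
The Runx core was found, on either strand, in the windows of 7 of the 10 genes (Gzma, Gzmb, Prf1, Nkg7, Ncr1, Klrk1 and Klrb1c), against 14% of 32851 windows of all genes. In Gzmb it lay 93 and 34 bases before the start, in Prf1 130 and in Klrk1 129. The AP-1 letters were found in 1 of the 10 genes, 58 bases before the start of Gzmb, against 6.75% of all windows. Of the other letters searched, the T-box core GGTGTGA stood in 1 gene, Nkg7, 13 bases before the RefSeq start, against 3.33% of all windows. The interferon-type element TTCNNNGAA stood in Nkg7 and Ifng (7.02% of all windows), and TATAAA on the gene strand 30 bases before Ifng (7.59%). None of these letters stood in the windows of Eomes and Tbx21. Ncr1 had a pair of overlapping windows, and no motif searched overlapped another in the 3 sequences shown. A match is a run of letters, and binding was not measured. As whole genes on GRCm38, Gzmb spans chr14:56258856-56262260, Prf1 chr10:61297836-61304263 and Klrk1 chr6:129610323-129623864, and Klrb1c lies on the same chromosome as Klrk1 at chr6:128778485-128789215. Nkg7 (chr7:43437073-43438246) and Ncr1 (chr7:4337724-4345164) share chromosome 7, and Prf1 and Ifng (chr10:118441047-118445892) chromosome 10. Gzma lies at chr13:113093825-113100979, Eomes at chr9:118478212-118486132 and Tbx21 at chr11:97098071-97115331. These spans are those of the deposited tables, and RefSeq starts can differ from them. The Nkg7 window ends at chr7:43437137, so its T-box match lies inside the span given here. The Klrb1c window, chr6:128788642-128788891, lies inside its span, and that of Gzmb stops short of its span.

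Libraries held 21.4 to 29.4 M reads as computed from the deposited values, 23.0 to 29.4 M in RM-9 and 21.4 to 25.5 M in MC-38. Mitochondrially encoded transcripts took 47.3 to 57.2% of all transcripts in RM-9, as TPM (a level per transcript length, scaled to 1 fixed total in every library), and 22.5 to 40.6% in MC-38, which left a different share of TPM to the other genes in each model. The epithelial markers fixed for the tumor label (4 genes) summed to 610 to 1394 TPM in RM-9 tumors but only 0.424 to 1.56 TPM in MC-38 tumors, whose adenocarcinoma label these transcripts therefore did not show. Skeletal muscle markers (5 genes) ranged from 2.94 to 2037 TPM in RM-9 and from 8.91 to 9515 TPM in MC-38 libraries, highest in MC-38 Control mouse 1.

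Without RT, the cytotoxic genes were far more abundant in MC-38 than in RM-9 tumors, and this held for every one of the 10. Gzmb stood at 31.7, 64.7, 65.9 and 64.1 TPM in the MC-38 Control mice and at 11.5, 13.9, 9.50 and 10.8 TPM in the RM-9 Control mice. The lowest MC-38 mouse thus lay above the highest RM-9 mouse, and Gzmb was the most abundant of the 10 genes in both models. Klrk1 stood at 8.67, 10.9, 11.8 and 16.2 TPM in MC-38 against 1.05, 0.763, 0.609 and 1.09 TPM in RM-9. Eomes, which drives NK cell maturation and the cytotoxic program of CD8 T cells, ranged from 5.21 to 9.35 TPM in MC-38 Control mice and from 0.220 to 0.257 TPM in RM-9 Control mice, a level that rests on 22 to 26 reads. Ifng was listed at 0.158, 0.0885, 0.236 and 0 TPM in the RM-9 Control mice, from at most 8 reads each, and at 1.83, 1.91, 1.06 and 2.69 TPM in the MC-38 Control mice.

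Within MC-38 Control tumors the order of mean levels was Gzmb (56.6 ± 16.6 TPM, SD, n = 4), Nkg7 (16.1 ± 3.68), Gzma (13.9 ± 5.63), Prf1 (13.4 ± 4.44), Klrk1 (11.9 ± 3.13), Eomes (7.71 ± 1.80), Ncr1 (2.66 ± 0.974), Ifng (1.87 ± 0.668), Klrb1c (1.74 ± 0.614) and Tbx21 (1.02 ± 0.400). Neighbours in this order overlapped between mice, except that every Gzmb value lay above every Nkg7 value and every Eomes value above every Ncr1 value. In RM-9 Control tumors Gzmb (11.4 ± 1.85 TPM) was followed by Prf1 (3.49 ± 0.947), Gzma (3.43 ± 0.999), Nkg7 (2.44 ± 0.817), Klrk1 (0.878 ± 0.231), Klrb1c (0.438 ± 0.144), Ncr1 (0.329 ± 0.0904), Tbx21 (0.248 ± 0.0890), Eomes (0.238 ± 0.0154) and Ifng. The ranges left gaps only between Gzmb and Prf1 and between Nkg7 and Klrk1. Only 5 of the 10 genes (Gzma, Gzmb, Prf1, Nkg7 and Klrk1) reached a mean of 0.5 TPM over the RM-9 libraries, while all 10 did in MC-38; the 5 low genes were kept in the RM-9 tests.

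**Figure D1:**
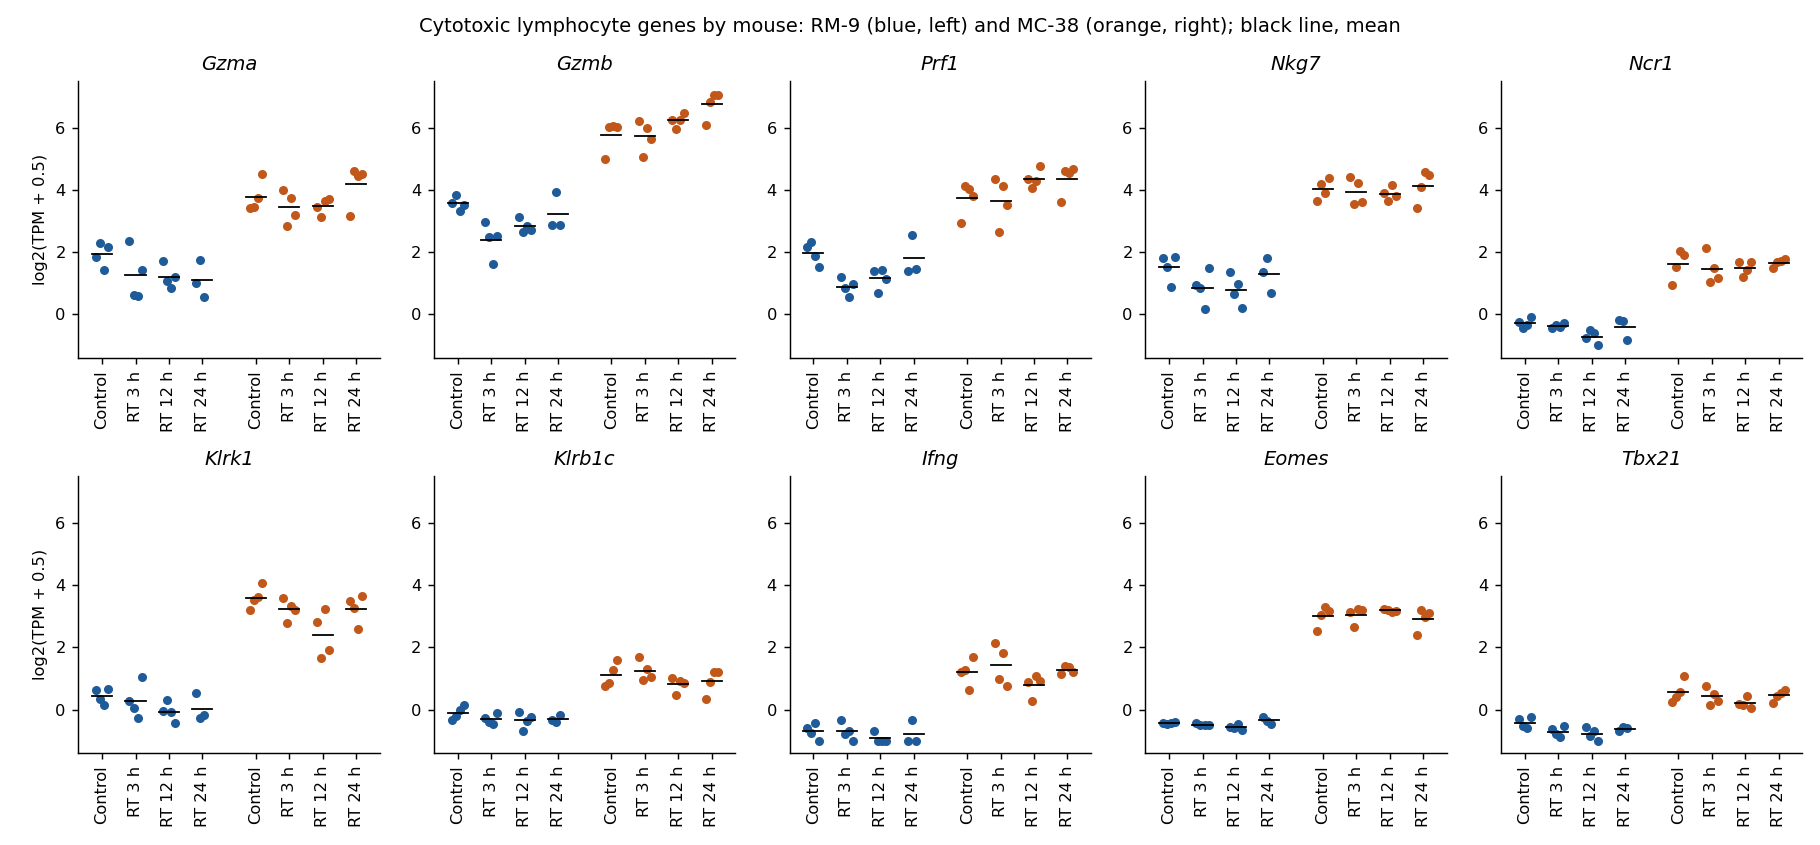
Level of each of the 10 genes as log2(TPM + 0.5), 1 point per mouse, by group, with RM-9 in blue on the left and MC-38 in orange on the right of each panel and the group mean as a black line. Every MC-38 Control point lies above every RM-9 Control point in all 10 panels, and the RM-9 values of Ncr1, Ifng, Eomes and Tbx21 lie near the floor of the scale.

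Differences between groups were tested with limma on log2(TPM + 0.5), with Benjamini-Hochberg adjustment over all genes tested and a threshold of 0.05. On this scale the change of a low gene is understated. All 10 genes were higher in MC-38 than in RM-9 Control tumors, with a largest adjusted p of 5.933e-05. Of all 16141 genes tested 75.3% were called and 64.4% were called higher in MC-38, so the members' count has to be read against that share. The same was true of separation, since all 10 genes did not overlap between the models, as did 50.7% of all genes with MC-38 higher, each at an exact two-sided permutation p of 0.0286, the smallest that 4 against 4 mice allow. The size of the difference stood further from the rest. The members' median log2 difference was 1.89, against 0.62 over all genes tested.

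By role, the receptors and factors spread the most. Eomes differed by 3.45 on the log2 scale (SE 0.16) and Tbx21 by 1.00 (SE 0.16), the largest and the smallest of the 10. Klrk1 differed by 3.15 (SE 0.31), Ncr1 by 1.88 (SE 0.21) and Klrb1c by 1.23 (SE 0.20). The granule genes lay between on this scale, with Nkg7 at 2.52 (SE 0.30), Gzmb at 2.21 (SE 0.29), Gzma at 1.84 (SE 0.36) and Prf1 at 1.76 (SE 0.33), and Ifng at 1.90 (SE 0.25). This order depends on the scale, which understates the low genes. Mean TPM in MC-38 and RM-9 Control tumors was 1.02 and 0.248 for Tbx21 and 1.87 and 0.121 for Ifng. For Prf1 it was 13.4 and 3.49. After median-ratio scaling, which removes the shift shared by most genes, the 10 differences ran from 0.68 to 3.05 and all 10 were still called. That scaling called 10440 genes, 5369 of them higher in MC-38, against 12149 and 10398 on TPM.

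Genes that work with these 10 were mostly higher in MC-38 too, in shares that have to be read against the 64.4% of all genes called higher. Of 20 NK receptor genes tested, 17 were higher in MC-38 and none lower, including Slamf7 (3.29 on the log2 scale), an activating receptor, and Klrd1 (2.56), which encodes CD94, the partner of the NKG2 family. Of 17 further granule genes 11 were higher and none lower, a share like that of all genes, among them Serpinb9 (2.18), an inhibitor of granzyme B, and Stx11 (1.82), which serves granule fusion. Cytokines and receptors that act on NK cells were higher in 11 of 13, with Il15 at 3.33 and its presenting chain Il15ra at 3.59. Of the 13 interferon gamma signalling genes 12 were higher, with Cxcl11 at 4.53 and Ido1 at 5.14. Of 13 lymphocyte chemokine and homing genes 11 were higher and 1 lower, with Ccl4 at 3.18 and Ccl5 at 3.24, and 8 of 10 transcription factors were higher, including Nfil3 (1.42), which is needed for NK cell development. All 3 NKG2D ligands tested (Raet1d, Raet1e and Ulbp1) were higher, Raet1d by 2.23. Under median-ratio scaling the counts of higher genes fell to 14 of 18 NK receptor genes and 9 of 17 granule genes. They fell to 9 of 12 cytokine genes and 3 of 10 transcription factors, with up to 2 genes of a list called lower. Over all genes, 5369 of 15853 tested were higher under that scaling.

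Markers of the cells that could carry these transcripts did not all differ in the same direction. NK cell markers (7 genes, 3 of them among the 10 genes) summed to 65.4 to 112 TPM in MC-38 Control and 24.8 to 30.1 TPM in RM-9 Control mice, and 7 of 7 were called higher. Most of that sum was Klra4, a Ly49 receptor gene (67.6 ± 14.9 against 23.9 ± 3.02 TPM, n = 4 each). T cell markers (12 genes) summed to 54.4 to 75.1 and 43.6 to 66.4 TPM, mostly Thy1, which other cells express too, with 9 of 12 higher and 1 lower, and Cd8a stood at 3.18 ± 0.633 against 0.116 ± 0.0577 TPM. General leukocyte markers (4 genes) summed to 313 to 467 TPM in MC-38 and 122 to 200 TPM in RM-9 Control mice, with 4 of 4 called higher on TPM but 1 of 4 after median-ratio scaling, where all 7 NK markers were still called. Of 5 mast cell markers none was called and none stood above 0, with a median log2 difference of -0.91. Of 2 plasmacytoid dendritic cell markers 1 was higher (Bst2) and 1 lower (Tcf4). No defining marker of NK or T cells was at 0 in every mouse of a group, and the part of cell number in the difference between the models was not tested.

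In RM-9 tumors 3 h post-RT, the granule genes were the ones that stood lowest, though none of the 10 genes passed the threshold. Gzmb stood at 11.5, 13.9, 9.50 and 10.8 TPM in Control mice and at 7.24, 5.10, 2.54 and 5.24 TPM in RT mice, and every RT mouse lay below every Control mouse. Prf1 stood at 3.97, 4.51, 3.16 and 2.34 TPM in Control and at 1.78, 1.31, 0.966 and 1.45 TPM in RT mice, again without overlap. The log2 differences were -1.17 for Gzmb (SE 0.27, adjusted p = 0.0799) and -1.08 for Prf1 (SE 0.26, adjusted p = 0.0916), both with limma. These were the 2 of 10 genes whose groups did not overlap, against 2.87% of all genes lower without overlap, and the 2 with an unadjusted p under 0.05, as had 21.8% of all genes. Limma called 0 of the 10 and 0.228% of all 14018 genes tested. Dunnett's comparisons on TPM, the test of the study, passed for both, without adjustment over genes. Limma after median-ratio scaling passed for both too (adjusted p = 0.034 and 0.0443). That scaling called 383 genes, 225 of them higher, against 32 and 28 on TPM.

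The other 8 genes overlapped between the groups at 3 h. Gzma and Nkg7 differed by -0.68 and -0.66 on the log2 scale, Tbx21 by -0.29, Klrb1c by -0.20 and Klrk1 by -0.17, and Ncr1, Eomes and Ifng by less than 0.1 in size. The scale understates the change of Tbx21, whose mean was 0.114 TPM at 3 h and 0.248 TPM in Control. These means rest on at most 24 reads a library. The median of the 10 was -0.25, against 0.06 over all genes. No gene of the 7 functional lists was called at 3 h. General leukocyte markers summed to 97.1 to 144 TPM against 122 to 200 TPM in Control mice. The NK marker sum, mostly Klra4 in Control, was 18.4 to 23.95 against 24.8 to 30.1 TPM. Skeletal muscle markers also stood lower, at 3.11 to 791 against 218 to 1998 TPM. The part of these cells in the values of Gzmb and Prf1 was not tested.

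At 12 h post-RT in RM-9 tumors, all 10 values were below 0, and none passed the threshold. Gzmb stood at 8.21, 5.80, 6.71 and 6.07 TPM and Prf1 at 2.12, 1.10, 2.21 and 1.68 TPM, all below the lowest Control mouse. Ncr1 was listed at 0.0917, 0.201, 0.166 and 0 TPM, against 0.341, 0.238, 0.287 and 0.448 TPM in Control mice, from at most 20 reads a library. Tbx21 was listed at 0.177, 0.0483, 0.113 and 0 TPM, and its range touched the Control range of 0.160 to 0.340 TPM. The log2 differences were -0.81 for Prf1 (adjusted p = 0.0628), -0.73 for Gzmb (adjusted p = 0.0864) and -0.44 for Ncr1 (adjusted p = 0.1), with limma.

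Limma called 0 of the 10 genes at 12 h, while 8.37% of all genes were called, and 5 of the 10 had an unadjusted p under 0.05 (Gzmb, Prf1, Nkg7, Ncr1 and Tbx21), against 31% of all genes. In 3 of the 10 (Gzmb, Prf1 and Ncr1) every RT mouse lay below every Control mouse, as in 19.4% of all genes. The members' median of -0.48 stood beside a median of -0.19 over all genes, which themselves were shifted down. Dunnett's comparisons passed for 2 genes, Ncr1 and Tbx21, each at 24 reads or fewer in every RM-9 library. These comparisons adjust over the 3 times and not over genes. They were run for the 10 genes only, so no share of all genes stands beside that count. Fitting only the RT 12 h and Control groups called 1 gene, Gzmb.

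Partner genes were called lower in RM-9 at 12 h, as were 8.30% of all genes. Cathepsin C (Ctsc), which activates granzymes, went from 57.3 ± 6.49 to 32.6 ± 6.18 TPM (n = 4 each, log2 difference -0.82, adjusted p = 0.0303 with limma), and Ctsw, a cathepsin of cytotoxic cells, from 0.879 ± 0.299 TPM to values between 0 and 0.474 TPM (-1.03). Il2rb, the receptor chain through which NK cells receive IL-15, went from 2.77 ± 0.526 to 1.36 ± 0.288 TPM (-0.82, adjusted p = 0.0304), and Il2rg by -0.56. Klrg1, an inhibitory receptor, differed by -0.80, Ifngr1 by -0.37 and Irf8 by -0.51. In counts, 2 of 16 granule genes, 1 of 11 NK receptor genes, 2 of 9 cytokine genes, 1 of 11 interferon gamma genes, 0 of 12 homing genes and 1 of 9 transcription factors were lower and none higher. After median-ratio scaling no gene of these lists was called, and over all genes 19 were called, 6 of them lower, against 1173 and 1163 on TPM.

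Leukocyte markers stood lower in the same libraries. They summed to 74.9 to 124 TPM at 12 h against 122 to 200 TPM in Control, with 3 of 4 called lower on TPM, and 3 of 6 T cell and 4 of 6 macrophage markers were lower. None of the 5 NK cell markers tested was called, and their sum, mostly Klra4, was 24.6 to 37.1 TPM. Mast cell markers, which matter because mast cells carry granzyme B too, ranged from 0.177 to 21.7 TPM against 12.5 to 28.5 TPM in Control, with none of 5 called. The part of these cells was not tested.

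At 24 h post-RT in RM-9 tumors, 2 of the 3 mice lay below the Control range for each of Gzmb, Prf1 and Gzma. Gzmb stood at 6.89, 14.8 and 6.78 TPM, so 1 mouse lay above every Control mouse and 2 below. Prf1 showed the same mouse above every Control mouse and the other 2 below, at 2.11, 5.40 and 2.24 TPM. Gzma stood at 1.498, 2.87 and 0.961 TPM, and that same mouse lay within the Control range of 2.19 to 4.43 TPM. No gene was called by limma among the 10 or among all 14018 genes tested (0.00%), with 681 genes at an unadjusted p under 0.05. Of the 10, only Gzma reached an unadjusted p under 0.05, at a log2 difference of -0.84 (adjusted p = 0.999 with limma), and Dunnett's comparisons passed for 0.

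In MC-38 tumors 3 h post-RT, none of the 10 genes moved beyond the spread between mice. Gzmb stood at 73.5, 32.5, 63.0 and 49.6 TPM and Prf1 at 19.7, 5.79, 17.0 and 10.8 TPM, across the Control ranges of 31.7 to 65.9 and 7.12 to 17.1 TPM. Ifng was the highest among the 10 changes, at 0.22 on the log2 scale, and Klrk1 the lowest, at -0.37. Limma called 0 of the 10 and 0.0637% of 15698 genes tested, 0 of the 10 had an unadjusted p under 0.05 and Dunnett's comparisons passed for 0. No gene of the 7 functional lists was called. Over all genes 10 were called, 8 of them higher, and 104 with 48 higher after median-ratio scaling.

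At 12 h post-RT in MC-38 tumors, Klrk1, which encodes the activating receptor NKG2D, was lower. The RT mice stood at 6.59, 2.69, 8.92 and 3.25 TPM and the Control mice at 8.67, 10.9, 11.8 and 16.2 TPM. Mice 2 and 4 of the RT group were far below Control and mouse 3 lay just inside its range, so the groups overlapped. The log2 difference was -1.19 (SE 0.32, adjusted p = 0.0188 with limma, exact permutation p = 0.0571). It was 1 of 10 genes called, against 31.1% of all genes and 2.59% of all genes called lower. The call was lost (adjusted p = 0.0511, 0.0598 and 0.0585) without Control mouse 4, RT 12 h mouse 2 or RT 12 h mouse 4, and where only the compared groups were fitted (adjusted p = 0.0525).

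The deposited tables gave another measure of Klrk1, the mean read depth per base of the gene (coverage). Put on the scale of TPM with 1 constant per library, coverage equalled TPM for Gzma, Gzmb, Prf1, Nkg7, Ifng and Tbx21, while TPM of Klrk1 was 1.35 to 2.97 times its coverage. Klrk1 has 6 annotated transcripts in GENCODE M21, and how the authors summed over them is not given in the sources used here. The ratio was under 2 in 13 of 15 RM-9 libraries but in only 3 of 16 MC-38 libraries, which were RT 12 h mice 2 and 4 (1.41 and 1.47) and RT 24 h mouse 3 (1.37). On coverage the MC-38 Control mice stood at 3.77, 4.29, 4.32 and 6.28 and the RT 12 h mice at 2.34, 1.91, 3.46 and 2.21, and the groups no longer overlapped. The log2 difference was then -0.80 (adjusted p = 0.0123 with limma), smaller than on TPM, and the baseline difference between the models was 2.20 in place of 3.15. At 24 h the TPM values were 10.6, 9.18, 5.57 and 11.9, and on coverage all 4 mice lay between 3.82 and 4.31, within the Control range.

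**Figure D2:**
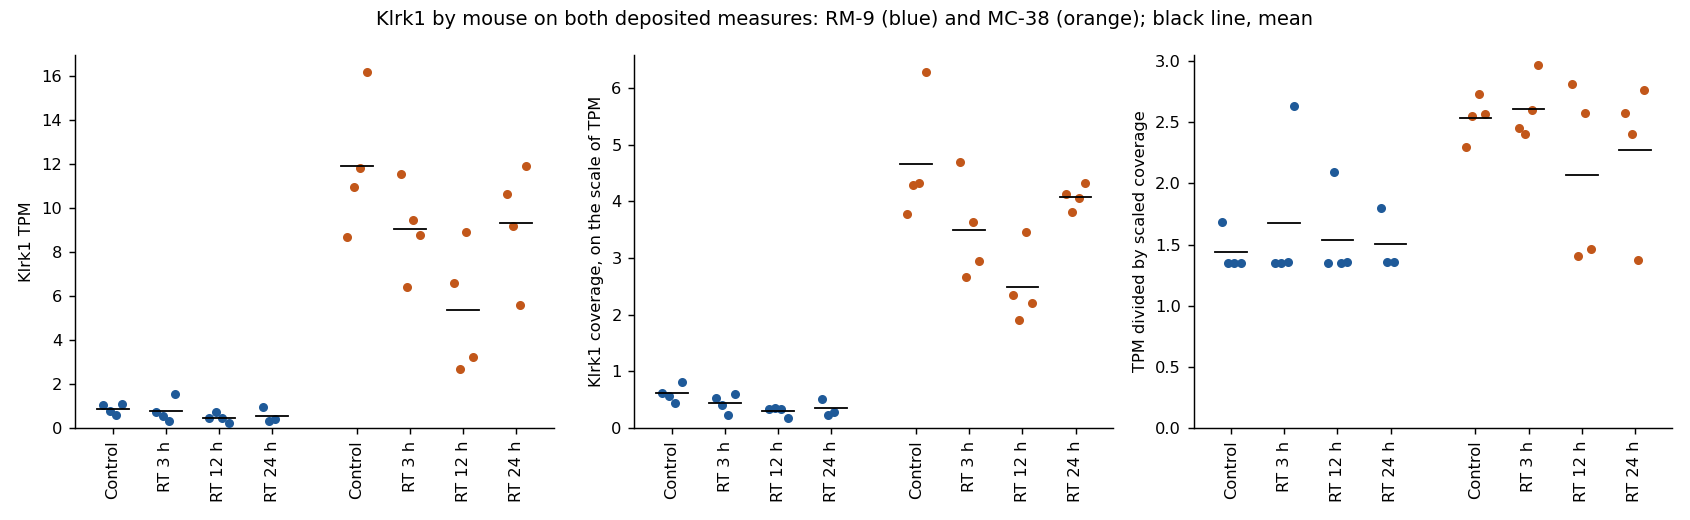
Klrk1 by mouse as TPM (left), as coverage scaled to TPM (middle) and as the ratio of both (right), for each group of RM-9 (blue) and MC-38 (orange), with the mean as a black line. In MC-38 the RT 12 h group has the lowest mean on both measures, though its mouse 3 (8.92 TPM) lies among the other groups, and the ratio is under 2 in 2 of them and in 1 RT 24 h mouse.

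The ligands of NKG2D, stress-induced proteins on the target cell, were not called lower in the same tumors. Raet1d stood at 14.4 ± 3.45 TPM in MC-38 Control mice and 21.6 ± 2.43 TPM at 12 h (log2 difference 0.59, adjusted p = 0.0227 with limma), and Ulbp1 at 5.24 ± 1.37 and 8.99 ± 1.66 TPM (0.74, adjusted p = 0.0346). These 2 of 3 ligands were called higher on TPM, as were 28.5% of all genes, and neither after median-ratio scaling (0.26 and 0.42) or without Control mouse 1 (0.41 and 0.59). Raet1a, Raet1b, Raet1c and H60a were not analysed here.

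Tyrobp, the gene of the signalling adaptor DAP12 that pairs with NKG2D and other receptors and is shared with myeloid cells, fell from 191 ± 43.7 to 90.9 ± 30.5 TPM (-1.10, adjusted p = 0.00787 with limma). Cathepsin C fell from 152 ± 30.1 to 74.7 ± 25.2 TPM and serglycin (Srgn), the proteoglycan core of the granules, from 92.9 ± 13.8 to 58.4 ± 8.57 TPM. All 3 were called lower under both other scalings and without Control mouse 1 too. The chemokine receptors Ccr2 (-0.90) and Cxcr3 (-0.87) were among 5 of 12 homing genes called lower, with none higher. Of 13 cytokine genes 2 were higher (Il15 and Il12rb1) and 1 lower (Il21r), of 13 interferon gamma genes 2 were higher (Jak1 and Cxcl11) and 1 lower (Cxcl9), of 17 granule genes 2 were higher and 2 lower, and of 10 transcription factors 3 were higher (Bhlhe40, Gata3 and Ets1). Without Control mouse 1 no cytokine or interferon gamma gene was called. On TPM 4469 of 4875 called genes were higher, and after median-ratio scaling 993 of 2534.

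Gzmb and Prf1 stood higher than in Control at 12 h, short of the threshold, while Gzma (-0.29) and Nkg7 (-0.15) stood slightly lower. Gzmb stood at 76.3, 61.2, 76.1 and 87.3 TPM, 3 of 4 mice above every Control mouse, with a log2 difference of 0.46, and Prf1 at 19.9, 16.3, 18.8 and 26.7 TPM, with 0.64. Neither passed the threshold (adjusted p = 0.194 and 0.153 with limma), and both stayed above 0 under median-ratio scaling, at 0.11 and 0.30. The members' median was -0.22, while the median of all genes was 0.33. Leukocyte markers summed to 144 to 277 TPM against 313 to 467 TPM in Control, and 4 of 4 were called lower, as were 6 of 12 T cell markers, 5 of 6 macrophage markers and 2 of 4 mast cell markers, but 0 of 7 NK cell markers. The part of these cells in the value of Klrk1 was not tested.

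At 24 h post-RT in MC-38 tumors, Gzmb was the gene that rose. The RT mice stood at 66.9, 112, 132 and 132 TPM, and every one lay above the Control mice at 31.7, 64.7, 65.9 and 64.1 TPM. RT mouse 1 was barely above the 3 high Control mice, while Control mouse 1 was far below its group. The log2 difference was 0.97 (SE 0.28, 95% interval 0.38 to 1.56, adjusted p = 0.0297 with limma, exact permutation p = 0.0286, the smallest possible), a ratio of 1.96 on that scale. It was 1 of 10 genes called, against 13.8% of all genes and 13.2% called higher, and the only one of the 10 without overlap, against 14.8% of all genes higher without overlap.

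The direction of this rise held under every alternative, but the call rested on few mice. Without Control mouse 1 the difference was 0.72 (adjusted p = 0.0962), and without RT 24 h mouse 2, 3 or 4 the adjusted p was 0.0729, 0.0722 and 0.094. Without RT 24 h mouse 1 it was 1.20 (adjusted p = 0.0125), and after median-ratio scaling 0.71 (adjusted p = 0.0441).

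Prf1 stood at 11.6, 24.1, 22.6 and 25.2 TPM at 24 h and Gzma at 8.40, 23.8, 21.4 and 22.1 TPM. Mouse 1 was again the lowest of its group, within the Control range for Prf1 and below it for Gzma. The other 3 mice lay above every Control mouse for Prf1, but for Gzma only mouse 2 lay above the highest Control mouse, at 22.2 TPM. Their log2 differences were 0.63 (adjusted p = 0.233) and 0.40 (adjusted p = 0.43, limma for both), short of the threshold. Nkg7 differed by 0.12, Ifng by 0.08, Ncr1 by 0.05, Eomes by -0.09, Tbx21 by -0.12, Klrb1c by -0.22 and Klrk1 by -0.35. The median of the 10 was 0.07 against 0.22 over all genes, and -0.15 after median-ratio scaling.

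**Figure D3:**
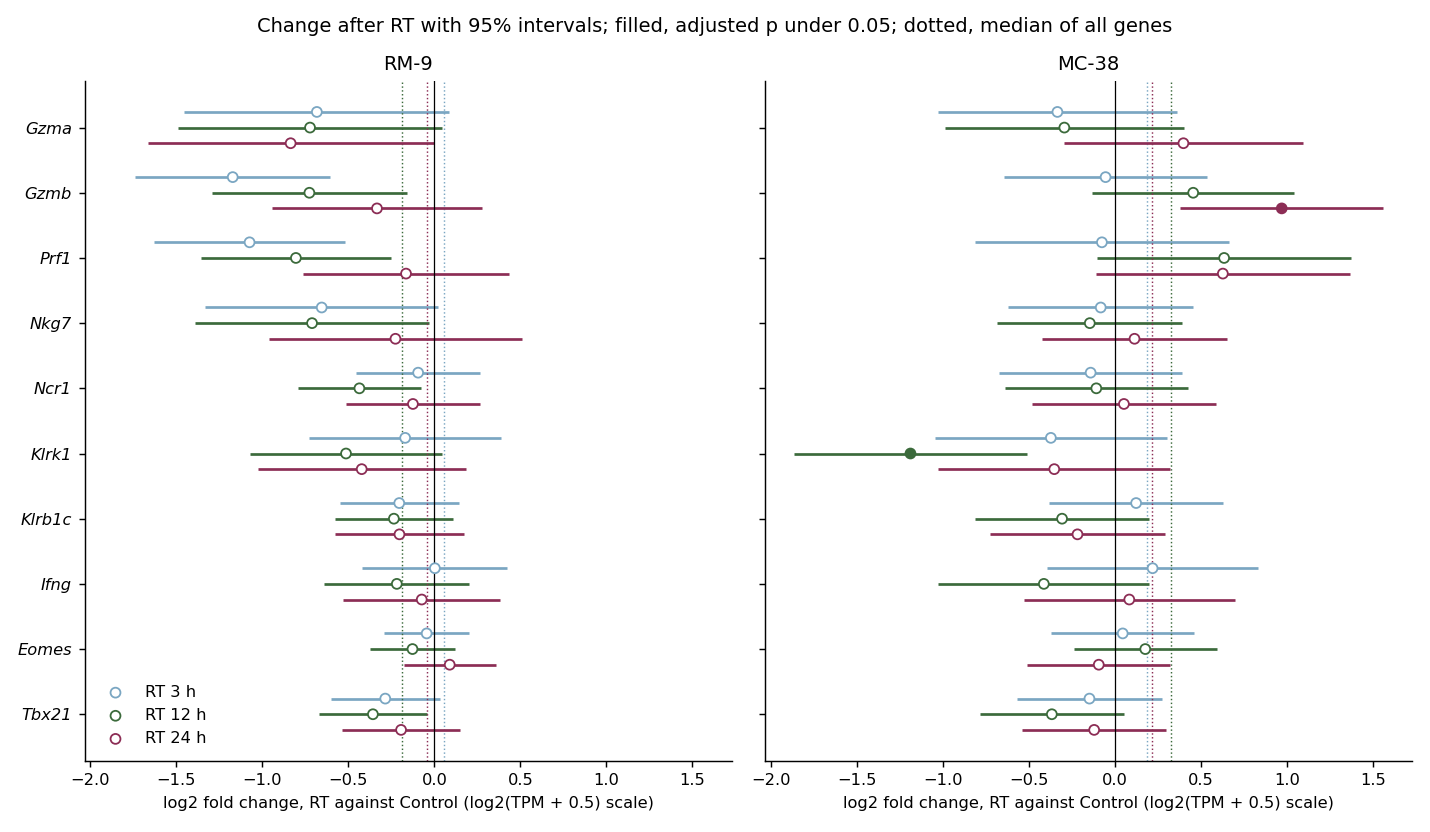
Log2 fold change of each gene against Control for each of the 3 times after RT in RM-9 (left) and MC-38 (right), on the log2(TPM + 0.5) scale, with 95% intervals from limma. Filled points have an adjusted p under 0.05 and dotted lines are medians of all genes tested. Gzmb at 24 h and Klrk1 at 12 h in MC-38 are the only filled points, at 0.97 and -1.19.

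Interferon-related and IL-15 transcripts were higher in MC-38 at 24 h as well. Il15, the cytokine that keeps NK and memory CD8 T cells alive, rose from 10.5 ± 2.67 to 20.9 ± 2.19 TPM (n = 4 each, log2 difference 0.99, adjusted p = 0.00268 with limma), and its receptor chain Il2rg from 59.0 ± 8.53 to 88.4 ± 9.45 TPM (0.58). Il27, another cytokine that acts on these cells, rose by 1.30. In all, 4 of 13 cytokine genes were higher and none lower, beside the 13.2% of all genes. Of 13 interferon gamma signalling genes 8 were higher and none lower, led by Cxcl11 (13.5 ± 4.18 to 51.3 ± 17.1 TPM, 1.89) and Cxcl10 (841 ± 185 to 1702 ± 535 TPM, 0.99), although Ifng itself was at 1.72, 2.15, 2.10 and 1.82 TPM within the Control range.

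Chemokines made by activated cytotoxic cells and myeloid cells rose too. Ccl4 went from 25.6 ± 5.13 to 83.6 ± 19.2 TPM (1.68, adjusted p = 0.000315 with limma) and Ccl5 from 120 ± 17.9 to 376 ± 152 TPM (1.56). Of 12 chemokine and homing genes 5 were higher and 2 lower, and the fractalkine receptor gene Cx3cr1 fell from 5.39 ± 0.848 to 1.47 ± 0.0510 TPM (-1.57). Of 17 granule genes 3 were higher and none lower, namely Stx11 (0.91) and Unc13d (0.72), which dock and prime granules for release, and Serpinb6b (0.81), a serpin. Of 20 NK receptor genes 1 was higher (Slamf7, 0.62), as were 1 of 3 NKG2D ligands (Raet1d, 0.62) and 1 of 10 transcription factors (Gata3, 1.43). The counts of granule genes, NK receptor genes and transcription factors are near or below the share of all genes called higher, and nothing particular to these lists is read from them.

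Without Control mouse 1 these counts were 3 of 13 cytokine genes, 5 of 13 interferon gamma genes, 4 of 12 homing genes higher and 2 lower, and 3 of 17 granule genes, and neither Slamf7 nor Raet1d was called. After median-ratio scaling they were 2 of 13, 4 of 13, 3 of 12 higher and 2 lower, and 3 of 17 higher and 1 lower, with Il15 at 0.74 (adjusted p = 0.002 with limma). On TPM 2073 of 2159 called genes were higher, and 1226 of 2505 after that scaling.

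T cell markers moved the other way at 24 h. Of 12 genes 3 (Cd2, Cd3e and Cd3g) were called lower, as were 0.548% of all genes, with Cd3e at 2.65 ± 0.381 TPM in Control and 1.18 ± 0.452 TPM in RT mice (-0.95, adjusted p = 0.0224 with limma). Without Control mouse 1, 2 of 12 were lower (Cd3g had an adjusted p of 0.0776), and after median-ratio scaling 7 of 12. None of 7 NK cell markers and none of 4 leukocyte or 4 mast cell markers was called, and 1 of 6 macrophage markers was lower. The NK marker sum, mostly Klra4 in Control, was 60.1 to 118 TPM against 65.4 to 112 TPM in Control. The leukocyte sum was 278 to 341 TPM against 313 to 467 TPM. B cell markers summed to 17.8 to 22.9 TPM against 6.82 to 13.1 TPM, with 2 of 3 higher. Plasmacytoid dendritic cell markers, which matter because these cells can carry granzyme B, had 1 of 2 higher. That gene was Bst2 (0.45, adjusted p = 0.0429 with limma), while Siglech and Ccr9 of the same list were too low to be tested. None of 5 neutrophil markers was called. The part of these cells in the value of Gzmb was not tested.

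Whether RT changed the genes differently in the 2 models was tested as an interaction over all 31 libraries. At 12 h the change was higher in MC-38 than in RM-9 by 1.18 for Gzmb (SE 0.41, adjusted p = 0.0234) and by 1.44 for Prf1 (SE 0.46, adjusted p = 0.0167, limma for both). Behind them stood changes of -0.73 and -0.81 in RM-9 and of 0.46 and 0.64 in MC-38, none of which passed the threshold on its own. These 2 of 10 genes stood against 43.2% of all genes called and 42.7% called higher, and the members' median difference was 0.32 against 0.49 over all genes. After median-ratio scaling the differences were 0.67 and 0.99 and neither gene was called (adjusted p = 0.317 and 0.197), with 434 genes called in all, 235 of them higher, against 6971 and 6897 on TPM. Without MC-38 Control mouse 1 they were 0.93 and 1.18 (adjusted p = 0.0761 and 0.054).

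At 3 h none of the 10 interactions passed with limma, as in all genes (0.00%, with 1587 at an unadjusted p under 0.05), and 2 of the 10 had an unadjusted p under 0.05, Gzmb (1.12) and Prf1 (1.00). At 24 h none of the 10 passed, against 2.25% of all genes (359 of 363 higher, and 226 of 271 after median-ratio scaling), and the 2 with an unadjusted p under 0.05 were Gzmb (1.31, adjusted p = 0.086) and Gzma (1.24, adjusted p = 0.18), while 21.7% of all genes had one. No Dunnett test exists for an interaction. Gzmb passed at 24 h without RM-9 RT 24 h mouse 2 (1.66, adjusted p = 0.0381), without MC-38 Control mouse 3 (1.40, adjusted p = 0.0464) or without MC-38 RT 24 h mouse 1 (1.53, adjusted p = 0.0399). Among partner genes, the change differed at 24 h for Il15 (0.89), Cxcl11 (1.80), Ccl5 (1.92) and Gata3 (1.43), each 1 gene of its list, and at 12 h for 4 granule genes higher and 1 lower of 17, 3 of 13 cytokine genes, 6 of 13 interferon gamma genes, 2 of 13 homing genes, 3 of 10 transcription factors, 0 of 20 NK receptor genes and 0 of 3 NKG2D ligands. Apart from the interferon gamma genes these shares lie below the 42.7% of all genes called higher at 12 h.

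Because leukocyte and T cell transcripts moved with RT, the granule genes were also set against the CD3 chains (Cd3d, Cd3e and Cd3g summed), the signalling part of the T cell receptor complex, within each library. Such a ratio is free of any scale factor that a library's genes share. The 3 chains were chosen after their lower values post-RT had been seen, so no test is given and the ratios lend no support to a call. In MC-38 tumors Gzmb stood at 2.33, 4.53, 6.91 and 4.19 per unit of CD3 TPM in Control mice, at 5.86, 4.15, 6.74 and 7.76 at 3 h, at 13.9, 9.21, 7.54 and 15.6 at 12 h, and at 14.2, 16.1, 13.6 and 14.3 at 24 h. All 12 h and 24 h mice lay above all Control mice, and the 24 h mice were close together (14.5 ± 1.05 against 4.49 ± 1.88, n = 4 each). Divided by the same CD3 sum, 49.2% of all genes tested lay above Control without overlap at 12 h and 37.8% at 24 h, so separation by itself says little of Gzmb.

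Prf1 per CD3 went from 1.07 ± 0.487 in Control to 3.18 ± 1.29 at 12 h and 2.75 ± 0.493 at 24 h, and Nkg7 per CD3 from 1.24 ± 0.264 to 2.15 ± 0.450 and 2.33 ± 0.109, with no overlap with Control at either time, as for the many other genes counted above. Gzma per CD3 was clear of Control only at 24 h (2.45 ± 0.686 against 1.07 ± 0.380). Both sides of the ratio contributed, since summed CD3 TPM was 9.54 to 15.3 in Control and 4.70 to 9.67 at 24 h. In RM-9 tumors Gzmb per CD3 was 3.53 ± 1.04 in Control, 3.37 ± 1.12 at 3 h, 6.20 ± 2.27 at 12 h and 5.01 ± 1.48 at 24 h (n = 3), and all these groups overlapped with Control. Divided by the same CD3 sum, 78.7% of all genes tested in RM-9 lay above Control without overlap at 3 h and 51% at 24 h. Nkg7 per CD3 at 12 h was the 1 RM-9 ratio clear of Control (1.09 ± 0.279 against 0.712 ± 0.132), as were 9.87% of all genes. At 3 h the lower Gzmb TPM thus came with lower TPM of the CD3 chains. The CD3 sum in RM-9 was 2.55 to 4.14 TPM in Control and 0.729 to 2.46 TPM at 12 h, so each ratio there rests on few transcripts.

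**Figure D4:**
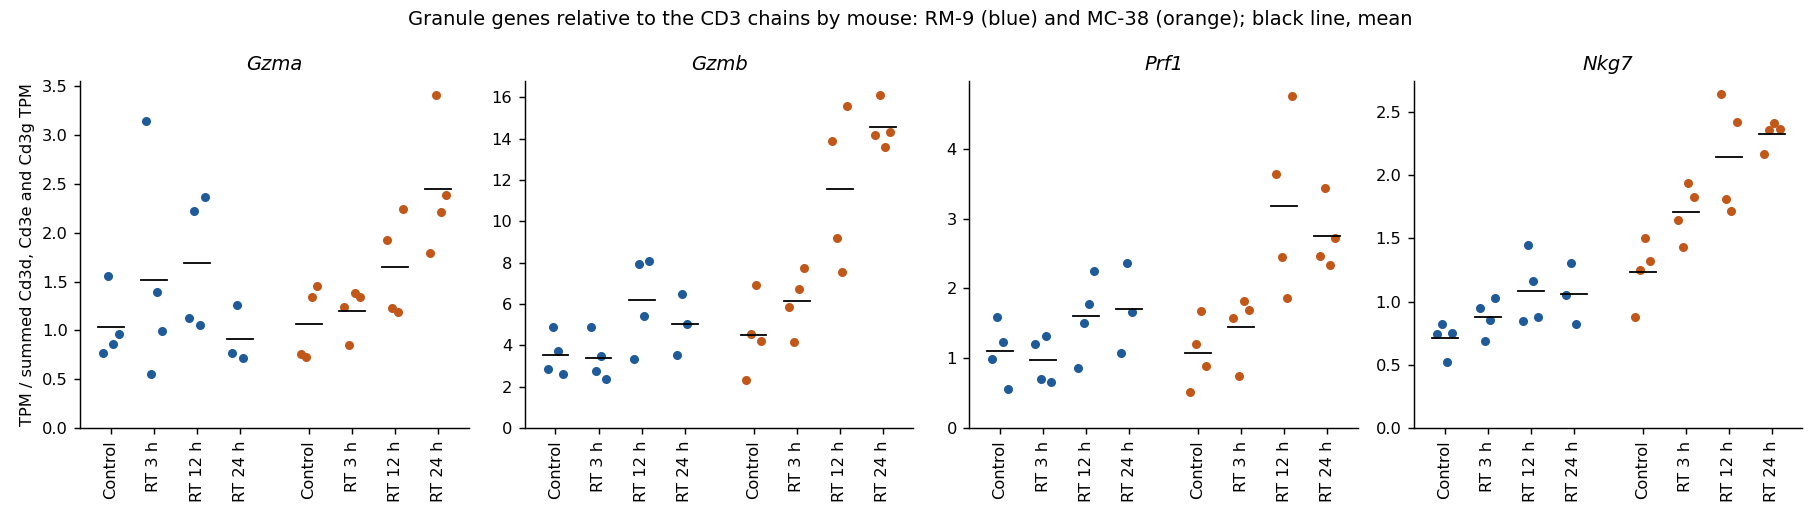
Gzma, Gzmb, Prf1 and Nkg7 TPM divided by the summed TPM of Cd3d, Cd3e and Cd3g in the same library, 1 point per mouse, by group, for RM-9 (blue) and MC-38 (orange), with the mean as a black line. In MC-38 the Gzmb ratio rises from 4.49 in Control to 14.5 at 24 h, while the RM-9 RT groups overlap with Control for Gzma, Gzmb and Prf1.

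Mice of 1 group differed from each other in most of these genes at once. In MC-38, Control mouse 1 held the lowest value of its group for 9 of the 10 genes, RT 3 h mouse 2 for 9, RT 24 h mouse 1 for 9 and RT 12 h mouse 2 for 8. The same 4 libraries held the most skeletal muscle transcripts of their groups, at 9515 TPM against 18.6 to 1558 TPM in the other Control mice, 2629 against 69.8 to 979 TPM at 3 h, 3176 against 12.8 to 973 TPM at 24 h and 409 TPM at 12 h. Control mouse 1 also had the largest mitochondrial share of its group, 40.6%. The part of muscle in these libraries' values was not tested. In RM-9 no library was lowest for more than 8 of the 10 genes, and RT 3 h mouse 3, which was lowest for 8, had a muscle marker sum of 3.11 TPM, the smallest of its group.

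**Figure D5:**
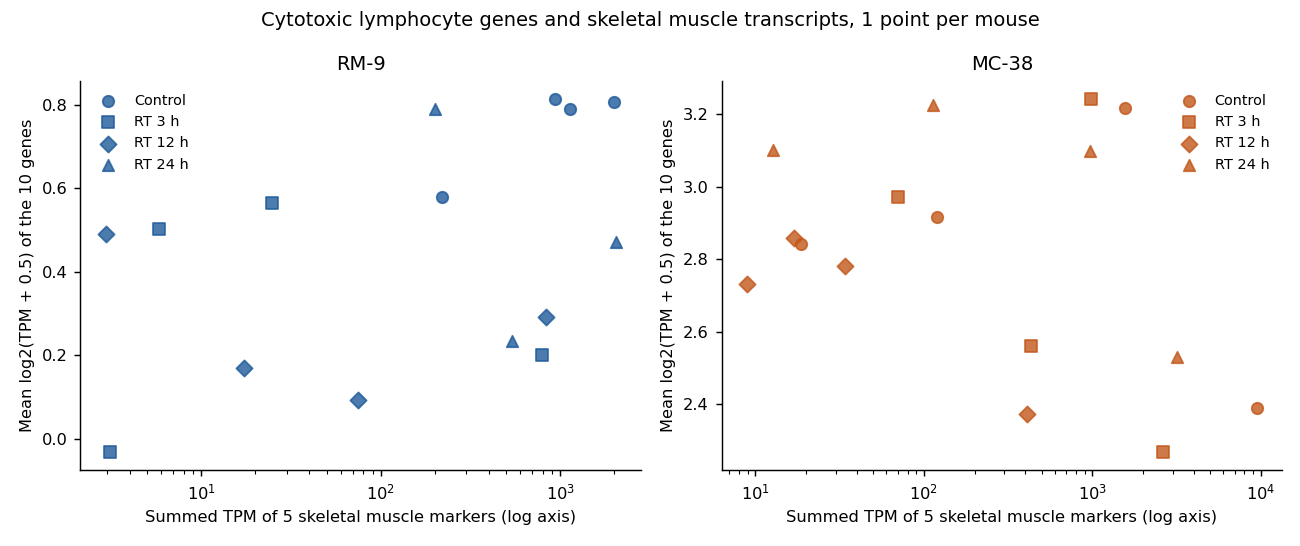
Mean log2(TPM + 0.5) of the 10 genes against the summed TPM of 5 skeletal muscle markers (log axis), 1 point per mouse, for RM-9 (left) and MC-38 (right), with groups by symbol. In MC-38 the lowest point of each group is the mouse with the most muscle transcripts of that group, at 2629 TPM for RT 3 h and 9515 TPM for Control, and in RM-9 the lowest point, at 3.11 TPM, has little muscle.

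Across mice the 10 genes followed each other to unequal degrees, which is given as a description, since values of 1 library share its depth and scale. In MC-38 (n = 16) Nkg7 had a Pearson r of 0.879 with the mean of the other 9 genes and Gzma 0.854, while Klrk1 had the lowest, 0.342. By Spearman rank correlation Eomes was the least close in MC-38, at 0.144, and Klrk1 stood at 0.476. In RM-9 (n = 15) Nkg7 was again the closest, at 0.868, and Ifng, with its many values of 0, the least close, at 0.323. The genes outside the 10 that most resembled their mean, among those with a mean of at least 1 TPM, were AW112010 (r = 0.923), Il2rb (0.893), Cd2 (0.875), Syngr2 (0.86) and Cd72 (0.853) in RM-9. In MC-38 they were Il2rb (0.893), 2210016F16Rik (0.888), Pparg (0.884), Pcbd2 (0.876) and Cst3 (0.861). Il2rb, the shared IL-2 and IL-15 receptor chain of NK and T cells, was the only gene in both lists, at 8.12 to 17.3 TPM in MC-38 and 1.03 to 3.38 TPM in RM-9 tumors.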

How the data were processed

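Libraries of poly(A) RNA (RNeasy Plus, TruSeq Stranded mRNA) were sequenced as 75-base single-end reads. Per the labels, the authors used bcl2fastq 2.17 and named build GRCm39, but gene coordinates in the deposited tables matched GRCm38 (91.1% of 45137 shared genes had the same start or end in GENCODE M21). The aligner and counter are not given in the sources used here. The authors deposited TPM, FPKM (TPM times 1 constant per library) and mean coverage per base for each gene, and no counts. Reads per library were computed from the ratio of FPKM to coverage and the read length, and reads per gene from coverage, exon length and read length, so depths are estimates.

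The 10 genes and all lists were chosen with earlier results of these data known. Tests used limma 3.58.1 in R 4.3.3 (lmFit, eBayes with trend) on the log2 of TPM plus 0.5, over the 4 groups of a model for RT and over all 31 libraries for baseline and interactions, keeping the 10 genes and any other gene whose TPM averaged 0.5 or more, with Benjamini-Hochberg adjustment. Exact two-sided permutation tests and Dunnett's comparisons (scipy 1.17.1) were run per gene. Dunnett's comparisons were run for the 10 genes only, and adjust over the 3 RT times of a model and not over genes. The fits were tested on simulated data. From each list, up to 3 genes with the smallest p among those called were named. Klra4, Thy1 and the summed CD3 chains were named after their values were seen. Some genes of the lists are not reported here by name. Motifs were searched in RefSeq windows (GRCm38.p6) with Python 3.11.15. Mice are separate samples, and the p-values measure the spread between them.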

Additional observations from a re-analysis of the deposited data

Results flagged for a closer look

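Among 70 sets of 4 mice, the 10 genes in each of 7 groups, 3 had a mouse far from the others by Dixon's 95% value, and chance gives about 1 in 20. Gzma in MC-38 RT 24 h was 8.402 TPM in mouse 1 and 21.38 to 23.83 TPM in the others. Gzmb in MC-38 Control was 31.68 TPM in mouse 1 and 64.07 to 65.94 TPM in the others. Both libraries had the most skeletal muscle transcripts of their group (3176 and 9515 TPM), and the part of muscle was not tested. Ifng in RM-9 RT 12 h was listed at 0.1219 TPM in mouse 1, from about 6 reads, and at 0 in the other 3.

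The change at RT 12 h differed between the models, higher in MC-38 than in RM-9, for Gzmb by 1.183 (adjusted p = 0.02338) and for Prf1 by 1.442 (adjusted p = 0.01666) on the log2 scale, with limma over all 31 libraries. Neither passed after median-ratio scaling.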

How the results depend on the processing

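Of 2110 alternative values of single genes, 1984 kept their direction and side of the threshold, 29 changed side and 97 changed direction, the last all for values called under neither setting and at most 0.43 in size as reported. Baseline kept all 10 calls in 18 of 18 alternatives. For RM-9 RT 3 h, 0 genes called became 2 with median-ratio scaling, 1 without mitochondrially encoded genes and 2 by Dunnett's comparisons. For RM-9 RT 12 h, 0 became 1 with only the compared groups fitted and 2 by Dunnett's comparisons. Counts by Dunnett's comparisons are not adjusted over genes, unlike those of limma. For MC-38 RT 12 h, 1 became 2 with median-ratio scaling and 0 with only the compared groups, and 0 to 1 when 1 mouse was left out. For MC-38 RT 24 h, 1 became 0 without a filter on low values (adjusted p of Gzmb 0.0689 with limma) and 0 with only the compared groups (0.0992), and 0 to 1 when 1 mouse was left out. The difference between the models at RT 12 h went from 2 genes to 0 with median-ratio scaling, 0 without mitochondrially encoded genes and 1 without a filter, and 0 to 2 when 1 mouse was left out. At RT 24 h it went from 0 to between 0 and 1 when 1 mouse was left out. The cause was not tested. Coverage in place of TPM and the left-out libraries of the gene lists were chosen after seeing the data.

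Calls over all genes moved more. Median-ratio scaling took RM-9 RT 3 h from 32 to 383 genes, RM-9 RT 12 h from 1173 to 19, MC-38 RT 3 h from 10 to 104, MC-38 RT 12 h from 4875 to 2534 and the 12 h difference between the models from 6971 to 434. Rescaling without mitochondrially encoded genes gave 184, 79 and 142 genes for the first 3 of these and 2176 for the last. Fitting only the compared groups gave 0, 280, 2, 1340 and, for MC-38 RT 24 h (2159 genes), 318. Leaving out 1 mouse gave 1 to 184 genes for RM-9 RT 3 h, as few as 0 for RM-9 RT 12 h, 1 to 425 for MC-38 RT 3 h, 1443 to 7292 for MC-38 RT 12 h, 1070 to 3528 for MC-38 RT 24 h, 4209 to 8646 for the 12 h difference and 76 to 1446 for the 24 h difference (363 genes).

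Mouse numbers did not pair the libraries, since libraries of the same number had a median correlation of -0.061 in RM-9 and -0.073 in MC-38. With the replicate block no call among the 10 genes changed (adjusted p of Gzmb at MC-38 RT 24 h 0.0287 with limma). Low levels limit Ifng, Ncr1 and Tbx21 in RM-9, at 0 to 24 reads a library.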
